A study of Mus musculus with 9 samples.

Results

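Zinc is held in cells by metallothioneins, small cysteine-rich proteins that bind zinc and copper, and is moved across membranes by transporters. Members of the SLC30 family carry zinc out of the cytoplasm and members of the SLC39 family carry it in. The factor MTF1 senses free zinc and switches on metallothionein genes and the exporter gene Slc30a1 through short metal response elements (MREs) near their start sites. In the heart metallothioneins are known as protectors against metal and oxidative stress.

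Here 8 genes of this system were followed among 38293 genes counted in mouse ventricles: the metallothioneins Mt1, Mt2 and Mt3, the factor Mtf1, the exporters Slc30a1 and Slc30a2, and the importers Slc39a10 and Slc39a14. They were chosen by their counts in these same libraries, in which Mt1, Mt2 and Mt3 moved together between the genotypes, so their genotype differences are described without a test. The libraries came from ventricles at postnatal day 7 of 5 Arid1a f/f control mice and 4 αMHC-Cre;Arid1a f/f littermates (cKO), kept on a C57B/6J background. Both groups carried the floxed Arid1a gene, which encodes a DNA-binding part of the SWI/SNF remodeler of chromatin. Only the cKO carried Cre, driven by a cardiomyocyte promoter, so other cells of the ventricle kept the gene. Each library is 1 labelled replicate, and p-values measure the spread between these libraries.

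Libraries held 31011055 to 40073801 counts. Levels are given as CPM, the share of a gene in the scaled library total, expressed in parts per 1000000 counts. The targeted gene Arid1a stood at 128 to 148 CPM in controls and at 100 to 113 CPM in cKO libraries, and the groups did not overlap. The libraries also fell into 2 sets that cross the genotypes. The gene Rps3a3 was near 0 (0.345 to 0.521 CPM) in control replicates 1 and 2 and cKO replicates 1 to 3, and at 99.7 to 112 CPM in the other 4. Over all tested genes 8.25% rose and 8.03% fell at an edgeR adjusted p under 0.05, the threshold for marker counts. Among the marker lists, summed cardiomyocyte markers were 54081 to 61920 CPM in controls and 48250 to 51541 CPM in cKO, and 2 of 8 fell. Summed fibroblast markers were 2797 to 3539 CPM and 3638 to 4324 CPM, and 3 of 6 rose, while atrial markers were 204 to 309 CPM and 960 to 2629 CPM, with 3 of 5 higher. The gene with the highest level in the atrial sum was Nppa, a natriuretic peptide gene also made by stressed ventricles, at 114 CPM on average in controls and 1721 CPM in cKO. Myl7 averaged 44.8 and 103 CPM, Dkk3 46.7 and 57.7 CPM, Myl4 42.3 and 47.5 CPM, and Sln 5.72 and 2.43 CPM. No marker of these 3 lists was at 0, and their part in the differences below was not tested. In bulk tissue, fewer cells of a type and less RNA per cell cannot be told apart.

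The stretches upstream of 4 of the genes are shown because they hold, or lack, the letters that MTF1 is known to read. Sequences come from RefSeq promoters on GRCm38.p6, run 5′ to 3′ and end at the first annotated start. Capitals mark MRE cores, TGCACNC or TGCGCNC on either strand.
Mt1 (chr8:94178882-94179081, + strand): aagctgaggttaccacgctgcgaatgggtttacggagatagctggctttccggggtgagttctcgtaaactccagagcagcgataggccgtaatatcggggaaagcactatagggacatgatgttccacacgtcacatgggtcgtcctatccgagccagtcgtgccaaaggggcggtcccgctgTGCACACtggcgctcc
Mt2 (chr8:94172418-94172617, + strand): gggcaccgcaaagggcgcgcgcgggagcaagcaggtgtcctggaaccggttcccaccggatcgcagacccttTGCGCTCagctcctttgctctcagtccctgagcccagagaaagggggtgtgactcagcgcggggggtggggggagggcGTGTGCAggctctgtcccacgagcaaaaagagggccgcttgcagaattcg
Mt3 (chr8:94152407-94152606, + strand): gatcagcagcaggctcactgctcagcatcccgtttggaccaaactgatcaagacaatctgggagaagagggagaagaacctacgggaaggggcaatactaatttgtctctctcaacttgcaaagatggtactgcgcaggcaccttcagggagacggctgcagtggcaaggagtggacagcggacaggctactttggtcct
Slc30a1 (chr1:191906567-191906766, + strand): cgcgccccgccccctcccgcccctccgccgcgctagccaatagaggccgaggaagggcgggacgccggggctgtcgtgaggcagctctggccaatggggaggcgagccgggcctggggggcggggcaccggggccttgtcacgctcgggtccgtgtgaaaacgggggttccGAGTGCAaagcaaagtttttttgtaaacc
Mt1 site just after the RefSeq start (chr8:94179091-94179115, + strand): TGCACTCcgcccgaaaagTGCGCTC
Mt2, Mt3 and Slc30a1 each have 1 further core after the RefSeq start, and Mt2 has 1 more that begins 223 bases before it. These lie outside the stretches shown.

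These letters were counted in windows of 300 bases, from 250 before to 50 after each RefSeq start. The Mt2 window held 4 MRE cores and the Mt1 window 3, whereas Mt3 held 1. Slc30a1 and Slc30a2 each held 2. The Mtf1 window and the windows at both RefSeq starts of Slc39a10 (46925776 and 46853618) held 0. Neither start is the upstream end of the counted Slc39a10 gene (46892852), which was not scanned. Slc39a14 is named only. Across 32851 mouse promoter windows of this length, 25.7% held at least 1 core, 7.11% at least 2, 1.97% at least 3 and 0.517% at least 4. The core of the antioxidant response element, TGACNNNGC, occurred 1 time each in the Mt2 and Slc30a1 windows and in 12.4% of all windows. In both it lay apart from the MRE cores. Letters outside these windows were not scanned, so a low count or a 0 holds for the window alone. A match describes letters and is not a measured binding site.

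All 3 expressed metallothioneins were higher in every cKO library than in any control library. Mt3 stood 5.69-fold higher in cKO, Mt2 3.98-fold and Mt1 2.13-fold. The importer gene Slc39a14 stood 1.63-fold lower, also without overlap. The factor gene Mtf1 and the remaining transporters differed by less than 1.5-fold. Across all 15318 genes tested by edgeR, 6.72% were called, that is, past an adjusted p of 0.05 with a fold change over 1.5, with 4.01% higher and 2.72% lower. Of the 8 chosen genes 4 were among them, 3 higher and 1 lower. All 8 passed the filter on low counts. Because the choice used this contrast, nothing is read from that count.

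**Figure D1:**
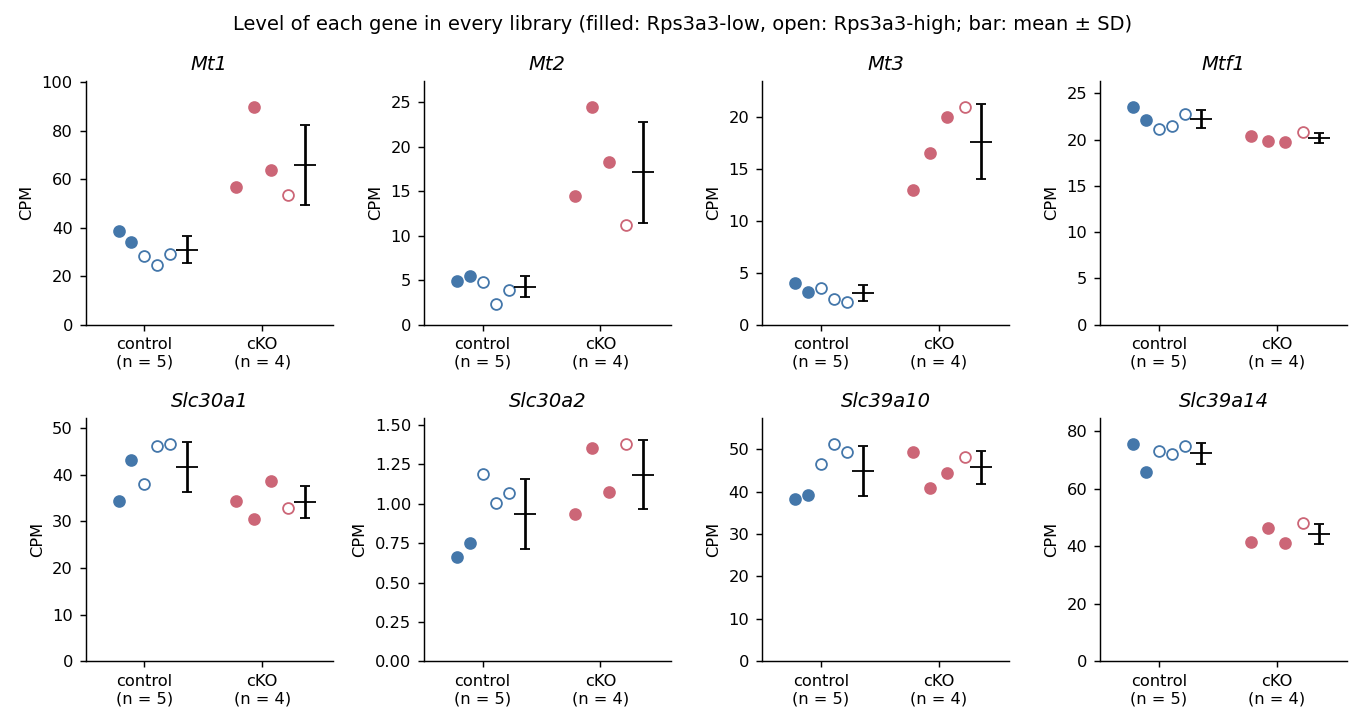
Level in CPM (y axis, from 0) of the 8 genes in each of the 5 control and 4 cKO libraries, with filled points for Rps3a3-low and open points for Rps3a3-high libraries and bars for the mean ± SD. Mt1, Mt2 and Mt3 sit higher, and Slc39a14 and Mtf1 lower, in every cKO library than in any control library.

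Mt1 and Mt2 encode the widely expressed metallothioneins that cells make in response to zinc, cadmium and glucocorticoids. Mt1 (ENSMUSG00000031765, chr8:94179082-94180327 in GENCODE M21 on GRCm38) read 38.7, 34.0, 28.3, 24.5 and 29.2 CPM in the 5 controls, in the order of their replicate numbers, and 56.7, 89.8, 63.8 and 53.5 CPM in the 4 cKO libraries, in the same order as for all genes that follow. The lowest cKO library was 1.38 times the highest control, and cKO replicate 2 stood above the other 3. Controls averaged 30.9 ± 5.49 CPM (SD, n = 5) and cKO libraries 65.9 ± 16.5 CPM (SD, n = 4). On the log2 scale the difference was 1.09 (SE 0.17).

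Mt2 (ENSMUSG00000031762, chr8:94172664-94173568) was at 4.87, 5.53, 4.76, 2.36 and 3.94 CPM in the controls and at 14.5, 24.5, 18.3 and 11.2 CPM in the cKO. Control replicate 4 was the lowest and cKO replicate 2 the highest, as for Mt1, and the gap between the groups was 2.03-fold. Means were 4.30 ± 1.22 CPM (SD, n = 5) and 17.1 ± 5.69 CPM (SD, n = 4), a difference of 1.99 (SE 0.26) on the log2 scale. An annotated antisense gene, Gm45774, shares 30.2% of the 75-base stretches of Mt2 and has no row among the counted genes. Because the strand setting of the counting is not given in the sources used here, reads of that gene cannot be told from those of Mt2.

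Mt3 is best known from the brain, where it was found as an inhibitor of neuronal growth. In these ventricles Mt3 (ENSMUSG00000031760, chr8:94152607-94154146) was at 4.06, 3.16, 3.57, 2.45 and 2.20 CPM in the controls and at 13.0, 16.5, 20.0 and 20.9 CPM in the cKO. The lowest cKO library was 3.19 times the highest control, the widest gap of the 3 metallothioneins. Means were 3.09 ± 0.772 CPM (SD, n = 5) and 17.6 ± 3.62 CPM (SD, n = 4), a difference of 2.51 (SE 0.19) on the log2 scale. Raw counts were 68 to 135 in controls and 417 to 865 in cKO. By fold change Mt3 ranked 47, Mt2 97 and Mt1 339 among the 15318 tested genes, counted from the highest.

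Mt4, the metallothionein of stratified epithelia, had 0 counts in every library. A count of 0 allows up to 3 counts, or 0.0726 to 0.097 CPM per library, by counting error alone.

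The 3 expressed genes did not keep their proportions. On the scale of CPM per kb of principal transcript, which allows genes to be compared, their summed level averaged 70.5 ± 13.0 over the 5 controls and 186 ± 40.2 over the 4 cKO libraries (± SD). Mt1 made up 76.3 to 82.9% of that sum in controls and 61.4 to 67.5% in cKO. The Mt3 share was 6.31 to 9.88% in controls and 12.7 to 24.6% in cKO, highest in cKO replicate 4, while the Mt2 share was 8.58 to 13.8% and 13.8 to 19.8%, with the ranges all but touching. Mt1 thus remained the main metallothionein transcript in all 9 libraries. The ratio of Mt1 to Mt3 per kb went from 7.73 to 13.0 across controls to 2.50 to 5.30 across cKO. Of the 3 ratios between these genes, only that of Mt3 to Mt2 overlapped between groups, at 0.531 to 0.991 in controls and 0.645 to 1.78 in cKO.

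**Figure D2:**
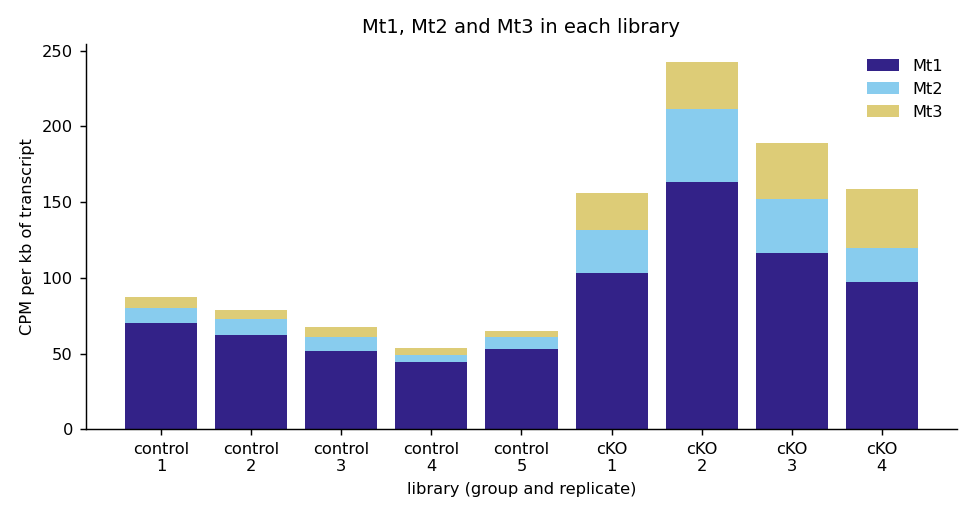
Stacked level of Mt1, Mt2 and Mt3 in CPM per kb of transcript (y axis, from 0) in each of the 9 libraries. The Mt1 share is 76.3 to 82.9% in controls and 61.4 to 67.5% in cKO, and all 4 cKO columns stand above all 5 control columns.

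Slc39a14 encodes ZIP14, an importer of zinc that also carries iron and manganese. This gene (ENSMUSG00000022094, chr14:70303469-70351425) was at 75.6, 65.9, 72.9, 71.9 and 74.8 CPM in the controls and at 41.5, 46.4, 41.1 and 48.0 CPM in the cKO. The 2 groups were far apart relative to their spread, with means of 72.2 ± 3.80 CPM (SD, n = 5) and 44.2 ± 3.50 CPM (SD, n = 4). Its log2 fold change was −0.71 (SE 0.07), which ranked 509 from the lowest.

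Mtf1 encodes the zinc sensor itself. Its level (ENSMUSG00000028890, chr4:124802104-124849800) was 23.5, 22.1, 21.1, 21.5 and 22.8 CPM in the controls and 20.3, 19.8, 19.7 and 20.8 CPM in the cKO. The groups did not overlap, although the gap was narrow, from 20.8 CPM in the highest cKO library to 21.1 CPM in the lowest control. The log2 fold change was −0.14 (SE 0.07). Of the 8 genes, 5 had groups that did not overlap, 3 with cKO higher and 2 with cKO lower. Over all tested genes 16.7% did so, 8.16% with cKO higher and 8.58% with cKO lower.

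Slc30a1 encodes ZnT1, the zinc exporter of the plasma membrane. It (ENSMUSG00000037434, chr1:191906767-191913247) was at 34.4, 43.2, 38.1, 46.1 and 46.6 CPM in the controls and at 34.5, 30.5, 38.7 and 32.9 CPM in the cKO. The groups overlapped, since control replicate 1 lay at the level of cKO replicate 1. Its log2 fold change was −0.29 (SE 0.10), opposite in sign to that of Mt1 and Mt2. The antisense gene 1700034H15Rik shares 7.54% of its 75-base stretches, and 1110065P20Rik shares 7.27% of those of Mtf1. Slc30a2, which encodes the vesicular exporter ZnT2, was the scarcest of the 8 at 0.662 to 1.19 CPM in controls and 0.933 to 1.38 CPM in cKO. With 22 to 57 counts per library, its log2 fold change of 0.34 carried an SE of 0.24.

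Slc39a10 encodes ZIP10, an importer of the plasma membrane. It (ENSMUSG00000025986, chr1:46807544-46892852) was at 38.3, 39.3, 46.5, 51.2 and 49.3 CPM in the controls and at 49.4, 40.8, 44.4 and 48.1 CPM in the cKO. Controls were split by library set, with Rps3a3-low controls at 38.3 to 39.3 CPM and Rps3a3-high controls at 46.5 to 51.2 CPM. The cKO to control ratio was 1.16 within the low set and 0.982 within the high set, in opposite directions. The log2 fold change over all libraries was 0.02 (SE 0.10).

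The metallothioneins and Slc39a14 kept their direction within both library sets, of which the high set holds 1 cKO library. The cKO to control ratio of Mt1 was 1.93 in the low and 1.96 in the high set, that of Mt2 3.67 and 3.04, and that of Mt3 4.57 and 7.64. For Slc39a14 the ratios were 0.608 and 0.656. They were 0.875 and 0.954 for Mtf1, 0.891 and 0.755 for Slc30a1, and 1.58 and 1.27 for Slc30a2. In the fit of the low set alone the log2 fold change of Slc30a1 was −0.17 (SE 0.14). Mt1 also differed between sets of controls, at 34.0 to 38.7 CPM in the low and 24.5 to 29.2 CPM in the high set. The study used pups of both sexes, and the labels give no sex. Split at 100 CPM of Xist, the cKO to control ratio of Mt1 was 2.38 in Xist-low and 1.88 in Xist-high libraries. That of Mt2 was 5.23 and 2.87, that of Mt3 5.08 and 6.08, and that of Slc39a14 0.593 and 0.641.

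Ordered by CPM per kb, Mt1 led in controls at 56.3 (44.6 to 70.4 over 5 libraries), followed by Slc39a14 at 14.7 (13.4 to 15.3). Mt2 (8.41), Slc39a10 (8.17), Slc30a1 (7.95) and Mt3 (5.76) came next, each overlapping in range with its neighbour in the order. Mtf1 (2.91) and Slc30a2 (0.297) closed the order without overlap. In the cKO, Mt1 at 120.1 (97.5 to 164 over 4 libraries) was followed by Mt2 (33.5) and Mt3 (32.8), whose ranges overlapped. Slc39a14 (8.98) and Slc39a10 (8.31) overlapped as well, ahead of Slc30a1 (6.52), Mtf1 (2.64) and Slc30a2 (0.376). In controls the importer Slc39a14 was thus above Mt2 and Mt3, and in the cKO it was below both, on this per-length scale.

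Within a group, libraries also varied, and Mt1 and Mt2 varied together. Deviations of log2 CPM from the group mean correlated at r = 0.86 between Mt1 and Mt2 over 9 libraries. For Mt3 the correlation was 0.31 with either gene, and Slc39a10 ran opposite to Mt1 at −0.89. Each point is 1 library, whose depth and base composition all genes share, and the values are descriptions. The genes most like the mean of Mt1 and Mt2 among 10717 with at least 5 CPM were Myh14 (r = 0.99), Borcs6 (0.98), Ssc5d (0.98), Hexdc (0.98) and Rab11b (0.98). None of the 5 was called between the genotypes, against 6.72% of all tested genes. Hexdc passed without a call (log2 fold change −0.35, edgeR adjusted p = 0.0395).

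Measured properties of the libraries moved with this variation. The slope of each library on GC content, that is, how much log2 CPM changed per 10 percentage points of transcript GC relative to the group mean, spanned −0.16 to 0.19 in controls and −0.14 to 0.23 in cKO. Mt1, Mt2 and Mt3 are short and GC-rich at 549, 511 and 536 bases and 58.1%, 55.6% and 62.3% GC, against medians of 2899 bases and 50.2% over tested genes. Over the 9 libraries the deviation of Mt1 correlated with the GC slope at r = 0.95, that of Mt2 at 0.75, that of Mt3 at 0.44 and that of Slc39a10 at −0.90. Of all tested genes, 10.9% had an absolute r over 0.9. For the 5 most alike genes r with the slope was 0.80 to 0.90. The slope of each library on transcript length moved with them as well, at r = −0.52 for Mt1, −0.68 for Mt2, −0.39 for Mt3, 0.67 for Slc39a10 and −0.72 to −0.58 for the 5 alike genes. The part of GC content and length in these correlations was not tested. With GC and length trends removed from each library, an alternative added after the data were seen, the genotype differences stood at 0.93 for Mt1, 1.87 for Mt2, 2.35 for Mt3 and −0.69 for Slc39a14 on the log2 scale.

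**Figure D3:**
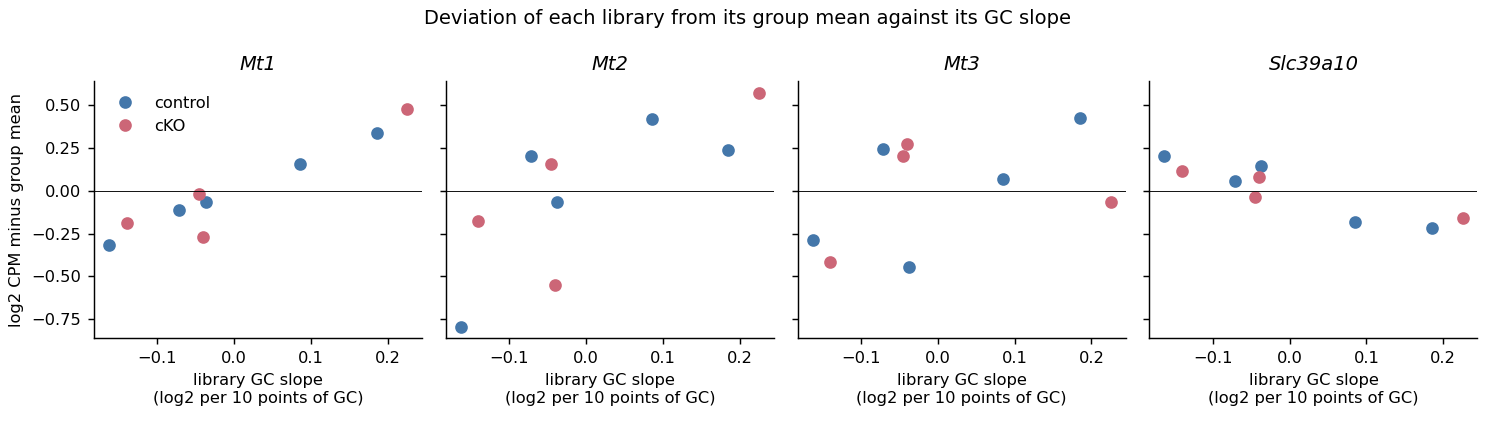
Deviation of log2 CPM from the group mean (y axis) against the GC slope of the library (x axis, log2 per 10 percentage points of GC) for Mt1, Mt2, Mt3 and Slc39a10 in the 5 control and 4 cKO libraries. Points of Mt1 climb with the slope (r = 0.95), those of Mt3 scatter (r = 0.44), and those of Slc39a10 descend (r = −0.90).

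None of the other tested zinc transporters passed the test. Of 8 further SLC30 genes 5 were tested, and of 12 further SLC39 genes 9 were tested. In edgeR, 0 of these 14 passed an adjusted p of 0.05, against 16.3% of all tested genes, 8.25% higher and 8.03% lower. At an unadjusted p under 0.05, 1 SLC30 gene (Slc30a6, 0.27, SE 0.11, named after its value was seen) and 0 SLC39 genes passed, and DESeq2 called 0 in both lists. Log2 fold changes ran from −0.19 to 0.27 in SLC30 and from −0.35 to 0.26 in SLC39, with medians of 0.03 and 0.05 against 0.01 over all tested genes. Of the chosen transporters, Slc39a14 (−0.71, SE 0.07), Slc30a1 (−0.29, SE 0.10) and Slc30a2 (0.34, SE 0.24) lay outside the range of their own family. Slc39a10 (0.02) lay within it. For Slc30a1 and Slc30a2 the distance to that range was smaller than the SE. Because the choice used this contrast, nothing is read from these places.

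**Figure D4:**
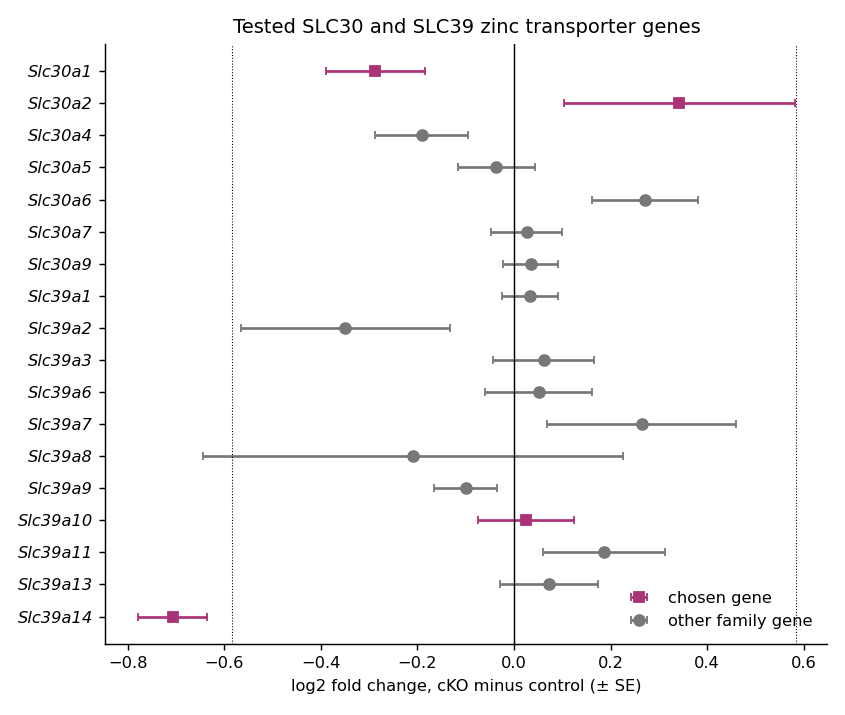
Log2 fold change, cKO minus control, with SE (x axis) for the 18 tested SLC30 and SLC39 genes, the 4 chosen ones as squares and the other 14 as circles, with dotted lines at a 1.5-fold change. Only Slc39a14, at −0.71, lies beyond a dotted line.

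Other genes that metals, metallothionein inducers or stress are known to move were examined in 8 lists. Of 6 metal-responsive genes all were tested, 3 rose and 1 fell at an adjusted p under 0.05, a threshold that 16.3% of all tested genes passed, 8.25% higher and 8.03% lower. The counts of the lists that follow stand beside the same shares. Csrp1, a LIM-domain protein of smooth muscle, was called at a log2 fold change of 0.88 (SE 0.11, edgeR adjusted p = 0.000278). It averaged 129 ± 10.1 CPM over the 5 controls and 238 ± 43.3 CPM over the 4 cKO libraries (± SD). Selenoh (0.51) and the heme oxygenase gene Hmox1 (0.53) rose and Ndrg1 (−0.30) fell without reaching 1.5-fold. In the Rps3a3-low libraries alone Csrp1 stood at 0.80 (edgeR adjusted p = 0.0442), while Selenoh (0.41, adjusted p = 0.436) and Hmox1 (0.24, adjusted p = 0.408) did not pass. With 1 library left out, Selenoh spanned 0.33 to 0.61 (adjusted p of 0.0139 to 0.086) and was called without cKO replicate 1. Hmox1 spanned 0.45 to 0.66 (adjusted p of 0.00388 to 0.0705) and was called without control replicate 2. The median of the list was 0.41, against 0.01 over all tested genes. These and the further genes below that were not called were named after their values were seen.

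In the copper list, 2 of 11 genes rose and 1 fell. Sco2, a mitochondrial copper chaperone, was called at 0.73 (SE 0.19, edgeR adjusted p = 0.0192), Ccs rose by 0.27, and Commd1 fell by 0.21 on the log2 scale. The Sco2 call was lost without cKO replicate 2 (0.66, adjusted p = 0.0581), cKO replicate 3 (0.67, adjusted p = 0.0612) or control replicate 3 (0.67, adjusted p = 0.0507), in the Rps3a3-low libraries alone (0.81, edgeR adjusted p = 0.101) and with GC and length trends removed (0.53). In the iron list, the ferritin light chain gene Ftl1 rose (0.45) and the iron exporter gene Slc40a1 fell (−0.43) among 10 tested, and 0 were called.

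Among 10 glucocorticoid-responsive genes 1 rose (Fkbp5, 0.54) and 1 fell (Tsc22d3, −0.33), and 0 were called. Of 10 tested NRF2 genes, which act against oxidants, 2 rose (Nqo1, 0.51, and Srxn1, 0.46) and 0 were called. Of 12 IL-6 and STAT3 response genes 0 passed in edgeR, with 1 at an unadjusted p under 0.05 and 0 passing in DESeq2. Fkbp5 was called with the library set as a term (0.62) and without cKO replicate 1 or 3, and did not pass without cKO replicate 2 (0.48, edgeR adjusted p = 0.0619), without cKO replicate 4 (0.44, 0.0688) or in the Rps3a3-low libraries alone (0.54, 0.206). Nqo1 was called in the Rps3a3-low libraries alone (0.76). Per1, at −0.33 over all libraries (edgeR adjusted p = 0.261) and −0.44 to −0.21 with 1 library left out, was also called there (−0.68). Serpina3n of the IL-6 list, at 0.27 over all libraries (edgeR adjusted p = 0.695), was called with the library set as a term (0.65) and turned to −0.26 without cKO replicate 4. Of 10 hypoxia genes 2 rose (Bnip3, 0.38, and Hif1a, 0.40) and 0 were called. At an adjusted p under 0.05 DESeq2 passed 4 glucocorticoid genes (Sgk1 and Nr3c1 as well), 3 hypoxia genes (Pdk1 as well), 2 NRF2 genes and 2 iron genes. It called 0 in these 4 lists, where 5, 4, 3 and 3 genes, in the same order, had an unadjusted edgeR p under 0.05.

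Among 8 heat shock genes 2 were called. The small heat shock protein gene Hspb1 rose by 0.72 (SE 0.12, edgeR adjusted p = 0.00128), from 55.5 to 91.6 CPM. Its call was lost in the Rps3a3-low libraries alone (0.54, edgeR adjusted p = 0.0752) and with GC and length trends removed, where the log2 fold change was 0.52 and below the fold threshold. Hspa1b rose by 0.62 (SE 0.20, edgeR adjusted p = 0.0495) at 1.03 to 1.59 CPM on average, and it was called in 4 of 19 other settings. With 1 library left out its log2 fold change spanned 0.50 to 0.70 with adjusted p of 0.0522 to 0.16, none of them called. The call was also lost in the Rps3a3-low libraries alone (0.63, adjusted p = 0.309), with the library set (adjusted p = 0.0771) or Xist level (0.0651) as a term, with no filter (0.0977) and with GC and length trends removed (0.50, adjusted p = 0.0704). Over the 10 lists, 4 of 91 tested genes were called, or 4.40%, against 6.72% of all tested genes.

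Mt1, Mt2, Mt3 and Mt4 lie on the same strand within 43.1 kb of mouse chromosome 8. Among the 13 other tested genes within 500 kb of that span, 0 were called by edgeR or DESeq2, against 6.72% of all tested genes, and 4 had an unadjusted edgeR p under 0.05. At an edgeR adjusted p under 0.05, 0 rose and 2 fell, Herpud1 (−0.37) and Arl2bp (−0.27), named after their values were seen. Over all tested genes 8.25% rose and 8.03% fell at that threshold. DESeq2 passed 3 of the 13 at an adjusted p under 0.05. The median log2 fold change of the 13 was −0.15 and their range −0.37 to 0.22. Nup93, named outside the rule as the tested neighbour that starts closest to Mt1 (35.5 kb), averaged 50.9 ± 2.11 CPM over the 5 controls and 53.5 ± 4.19 CPM over the 4 cKO libraries (± SD).

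**Figure D5:**
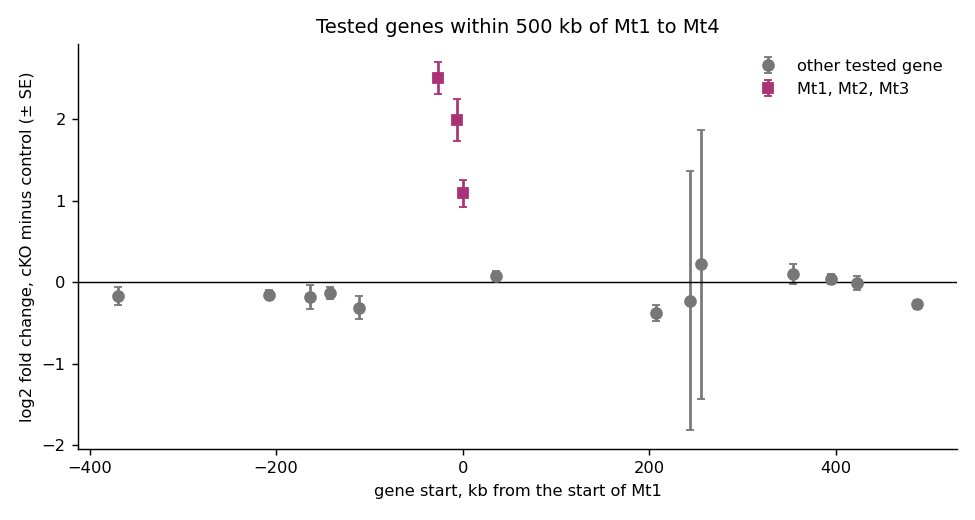
Log2 fold change, cKO minus control, with SE (y axis) of the tested genes within 500 kb of the Mt1 to Mt4 span, by distance of the gene start from the start of Mt1 in kb (x axis). Mt1, Mt2 and Mt3 (squares) lie at 1.09, 1.99 and 2.51, and the 13 other genes (circles) at −0.37 to 0.22, of which 2 carry SEs over 1.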

How the data were processed

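Poly(A)-selected RNA of 9 ventricle samples was sequenced by the authors with a stranded kit as single-end reads of 75 bases. The authors deposited raw read counts per gene, a single table on mm10 with no normalization. The submitters' processing notes name STAR 2.4.2a and HTSeq 0.6.1 without their roles, and the strand setting of the counting is not given in the sources used here. The table held 0 other sample columns. Symbols came from GENCODE M21, where 36345 of 38293 identifiers were found with 99.82% of counts.

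Counts were fitted in R 4.3.3 with edgeR 4.0.16 (filterByExpr with a minimum count of 10, TMM scaling, robust quasi-likelihood F test, genotype alone, Benjamini-Hochberg adjustment over 15318 genes). Genes were called at an adjusted p under 0.05 and over 1.5-fold. CPM is counts over the TMM-scaled total. Scripts were tested on simulated data. Alternatives were DESeq2 1.42.0, other scalings and filters, the replicate number as a block, the library set, Xist level, each library left out, and, added after seeing the data, removal of GC and length trends. The study's text gives either 4 or 5 controls, and every library labelled as a control (5) entered the fit.

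The members and lists were chosen with earlier results of these data known. The text names the 8 genes, Mt4, called transporters, up to 3 called genes per other list, called neighbours, the 5 genes most like Mt1 and Mt2 (mean of at least 5 CPM), Arid1a and Rps3a3. Other genes are marked where named. Marker lists covered cardiomyocytes, fibroblasts, endothelium, mural cells, macrophages, erythroid cells, epicardium, Schwann cells, adipocytes and atrium. The result of 1 further marker list is not reported here.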

Additional observations from a re-analysis of the deposited data

How the results depend on the processing

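Over 20 alternatives the log2 fold changes of Mt1, Mt2, Mt3 and Slc39a14 spanned 0.91 to 1.19, 1.77 to 2.15, 2.19 to 2.63 and −0.75 to −0.67. Over all tested genes 1030 were called, 909 to 1171 with 1 library left out, 879 with the replicate block and 620 in the Rps3a3-low libraries alone, where fewer samples were fitted. In those libraries the log2 fold change was 2.19 for Mt3, −0.19 for Mtf1, 0.66 for Slc30a2 and 0.21 for Slc39a10. That of Slc39a10 had the sign of the full fit in 16 of 20 alternatives. Of the genes in the 10 lists 4 were called, 2 to 5 with 1 library left out (2 without cKO replicate 2 or control replicate 3), and 1 with GC and length trends removed. The cause was not tested. The number of genes called near Mt1 to Mt4 was 0 throughout. Same-numbered libraries correlated at 0.01 to 0.23, so the numbers were not taken as pairs. The replicate block, which leaves out control replicate 5, gave 3 called listed genes, Hspa1b (0.55, edgeR adjusted p = 0.185) having lost its call. Fkbp5 (edgeR adjusted p = 0.0703) and Selenoh (0.105), which passed without a call in the full fit, no longer passed there. Nqo1 (0.0304) and Hmox1 (0.0269) still passed. Depth limits Slc30a2, with 22 to 57 counts per library, and intervals for counts of 0 cover counting error only.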

Other observations

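Nlrc5, a regulator of MHC class I genes that starts 255 kb from Mt1, was chosen after its values were seen because its level spread widely without regard to genotype. By replicate number, the controls read 10.9, 84.9, 1.52, 0.472 and 0.323 CPM and the cKO libraries 29.9, 14.7, 46.7 and 0.702 CPM. All 5 Rps3a3-low libraries were above 10 CPM and all 4 Rps3a3-high libraries below 2 CPM. The neighbouring transcript 9330175E14Rik was at 1.86 to 17.9 CPM in the former and at 0 to 0.36 CPM in the latter. On the same chromosome, Mt1 and Mt2 were also higher in the Rps3a3-low libraries of each group, by far less. Mt1 was at 34.0 to 38.7 CPM in the low and 24.5 to 29.2 CPM in the high controls, and at 56.7 to 89.8 CPM in the low cKO libraries against 53.5 CPM in the high one. Mt2 was at 4.87 to 5.53 CPM and 2.36 to 4.76 CPM in these controls, and at 14.5 to 24.5 CPM against 11.2 CPM in the cKO. Mt3 overlapped between the sets of controls, at 3.16 to 4.06 and 2.20 to 3.57 CPM, and was highest in the Rps3a3-high cKO library.

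Among the remaining marker lists, Cidea, a lipid droplet gene listed for adipocytes, averaged 29.4 ± 3.15 CPM over the 5 controls and 54.8 ± 4.39 CPM over the 4 cKO libraries (± SD; log2 fold change 0.90, SE 0.09, edgeR adjusted p = 3.7e-05), while Adipoq, Plin1, Cidec and Ucp1 were under 1 CPM on average over the 9 libraries. Summed Schwann cell markers were 10.02 to 15.5 CPM in controls and 6.02 to 13.8 CPM in cKO. Endothelial markers summed to 1403 to 1502 and 1369 to 1463 CPM, with 1 of 6 lower. Mural markers summed to 1782 to 1882 and 1776 to 2106 CPM, macrophage markers to 82.8 to 133 and 91.1 to 157 CPM, and erythroid markers to 430 to 823 and 652 to 1018 CPM. Epicardial markers summed to 72.8 to 141 and 81.2 to 109 CPM, with 1 of 6 lower.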
